A study of Mus musculus with 9 samples.

Results

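The 10 chemokine genes Cxcl1, Cxcl9, Cxcl10, Cxcl12, Cxcl13, Ccl2, Ccl6, Ccl9, Ccl24, and Cx3cl1 were followed in the livers of 9 mice. They were selected by gene symbol from the 23183 symbols of the expression tables, with the condition of a value above 0 in at least 1 liver. All 10 genes met this condition, as did 16889 genes in the tables as a whole.

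The mice were male C57BL/6J animals, an inbred strain that gains weight on fat-rich chow, labelled as 100 days of age. The 3 ND mice (numbers 6, 7, and 9) ate a diet with 14% fat for 10 weeks. The 3 HFD mice (1, 2, and 3) ate a diet with 60% fat for 10 weeks. The 3 PRF 50 mice (3, 9, and 10) ate the same 60% fat diet for 10 weeks and were given, by mouth, 50 mg/kg of PRF each day for the last 5 of these weeks. PRF is a polymethoxyflavone-rich fraction of Jinkyool (Citrus sunki) leaf, given in carboxymethylcellulose, and the sources used here do not state whether ND and HFD mice received that vehicle. Each liver gave 1 poly(A)-selected RNA library of the whole tissue, so that signals of hepatocytes, resident and recruited leukocytes, and vessel cells were measured together. The numbers are names of animals, with no pairing across groups.

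Chemokines are small, mostly secreted proteins that direct leukocytes along concentration gradients by binding receptors of the G protein-coupled family. Some are made at a steady level for the placement of cells in resting tissue, and others are induced by interferons, bacterial products, or cytokines. In the liver they are made by Kupffer cells (the resident macrophages), sinusoidal endothelial cells, stellate cells, and hepatocytes, and they are widely studied in fat-rich feeding because leukocytes enter the fatty liver.

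Expression is given as FPKM (fragments per kilobase of transcript, scaled for sequencing depth), obtained from the deposited log2(FPKM + 1) values. An estimate of the fragments behind each value was possible because low values were stacked at whole multiples of a common step per mouse. Among genes with a single annotated transcript and fewer than 3.5 estimated fragments (199 to 247 genes per mouse), 76.9% to 81.8% lay within 0.1 of a whole number. Estimated in this way, Ccl9 rested on 269 to 863 fragments per liver, Cxcl9 on 119 to 394, Ccl6 on 34 to 257, Cxcl1 on 31 to 512, and Cxcl10 on 23 to 108. The low genes had much less support, with 8 to 33 fragments for Ccl24, 2 to 118 for Cxcl13, 0 to 61 for Ccl2, and about 1 to 12 for Cx3cl1. Cxcl12 has 3 RefSeq transcripts and was left out of this estimate. Relative to HFD mouse 1, depth was 0.963 to 1.59 in all livers, and ND, HFD, and PRF 50 livers overlapped in it.

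PRF 50 mouse 3 stood apart from the other 8 livers in chemokine levels. It had the highest value of 7 of the 10 chemokines (Cxcl1, Cxcl9, Cxcl10, Cxcl13, Ccl2, Ccl6, and Ccl9), whereas it was the highest liver for 10.7% of the 10048 genes that averaged 1 FPKM or more in the 9 livers. The depth of this library, 0.981 of that of HFD mouse 1, was not unusual. Its mean correlation with the other PRF 50 livers across genes (Pearson's r = 0.983) was like that of PRF 50 mice 9 and 10 (0.983 and 0.981). With livers of the other groups its mean r was 0.969, below that of PRF 50 mice 9 and 10 (0.973 and 0.975). The range of this value over the 9 livers was 0.967 to 0.978. Values of several results without PRF 50 mouse 3 are given below. Over all genes, ND mouse 6 stood out. It was the highest liver for 23.6% of the 10048 genes, against 7.76% to 11.3% in the others. The lowest value was also in ND mouse 6 for 18.3% of these genes, against 6.67% to 12.3% in the others, and for 5 of the 10 chemokines.

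**Figure D1:**
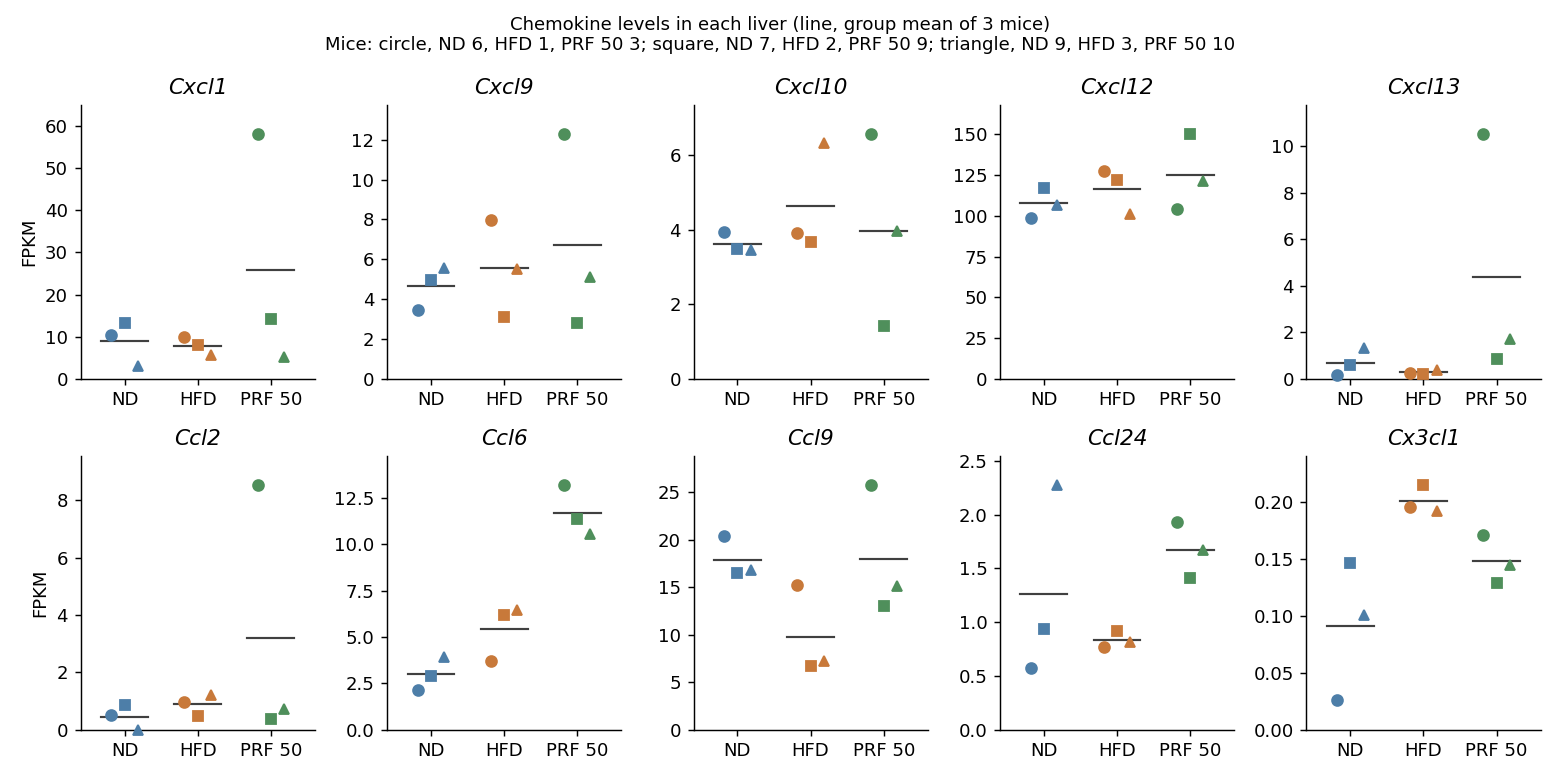
FPKM of each of the 10 chemokines (vertical axis, from 0) in the 3 livers of each group, with 1 symbol per mouse and a line at the group mean. The circle of the PRF 50 group is mouse 3, the highest liver for 7 of the 10 genes, and in Ccl6 the 3 PRF 50 livers, at 10.5 to 13.2 FPKM, lay above the other 6.

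Differences between groups were tested with limma on the log2 scale, over all genes that averaged 1 FPKM or more in the 6 livers compared, and are given as log2 differences with 95% intervals. The added 1 makes differences of genes with few FPKM smaller on this scale than in FPKM. For PRF 50 vs. HFD, 1 chemokine of 9 tested had an adjusted p under 0.05, as did 3.59% of the 10084 genes tested. Ccl6 and Cxcl13 had an unadjusted p under 0.05 and a fold change above 2 on the log2(FPKM + 1) scale. The same held for 2.1% of all tested genes. Cxcl13 was in the test only through its PRF 50 values, mainly that of mouse 3, so this number is not read against that share. Both thresholds are those the study gives for its changed genes, but its way of computing fold and p was not repeated. By the ratio of mean FPKM, Ccl24 would also have passed (2.01-fold, unadjusted p = 0.00213 from limma). The 3 PRF 50 livers did not overlap the 3 HFD livers for 3 chemokines, Ccl6, Ccl24, and Cxcl13, and for 26.2% of all tested genes. Each of these 3 was higher in the PRF 50 group. Cxcl13, Ccl2, and Ccl24 reached the minimum through their PRF 50 values, with HFD means below 1 FPKM, so the 9 tested genes do not stand for all 10. Cx3cl1 was not tested in any comparison.

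For HFD vs. ND, 7 chemokines were tested and limma placed 0 of them under an adjusted p of 0.05, against 1.33% of 9978 genes. Ccl6 (higher) and Ccl9 (lower) had an unadjusted p under 0.05. None passed the joint criterion of p and fold, which 1.34% of all tested genes met, and 1, Ccl9, had no overlap between the groups, as did 20.7% of all tested genes. For PRF 50 vs. ND, 1 of 9 tested chemokines had an adjusted p under 0.05 (0.458% of 10051 genes), and the same gene, Ccl6, was the 1 that passed p and fold (1.76% of all genes) and the 1 without overlap (19.9% of all genes). Any 2 of the comparisons share a group of mice. In PRF 50 vs. ND, Cxcl13 and Ccl2 again reached the minimum through PRF 50 mouse 3.

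The number of called genes depended on single livers. Between PRF 50 and HFD, 362 genes were called, and 15, 31, and 40 were called without HFD mouse 3, HFD mouse 2, and PRF 50 mouse 3, beside 168 without PRF 50 mouse 10 and 215 without HFD mouse 1. Between HFD and ND, the 133 called genes became 35 without HFD mouse 3, 41 without HFD mouse 2, 39 without ND mouse 7, and 63 without ND mouse 6. Between PRF 50 and ND, the 46 called genes became 4, 8, 17, and 26 without ND mouse 7, PRF 50 mouse 3, ND mouse 6, and PRF 50 mouse 9, and 71 without PRF 50 mouse 10. Fits with a mouse left out have fewer samples.

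**Figure D2:**
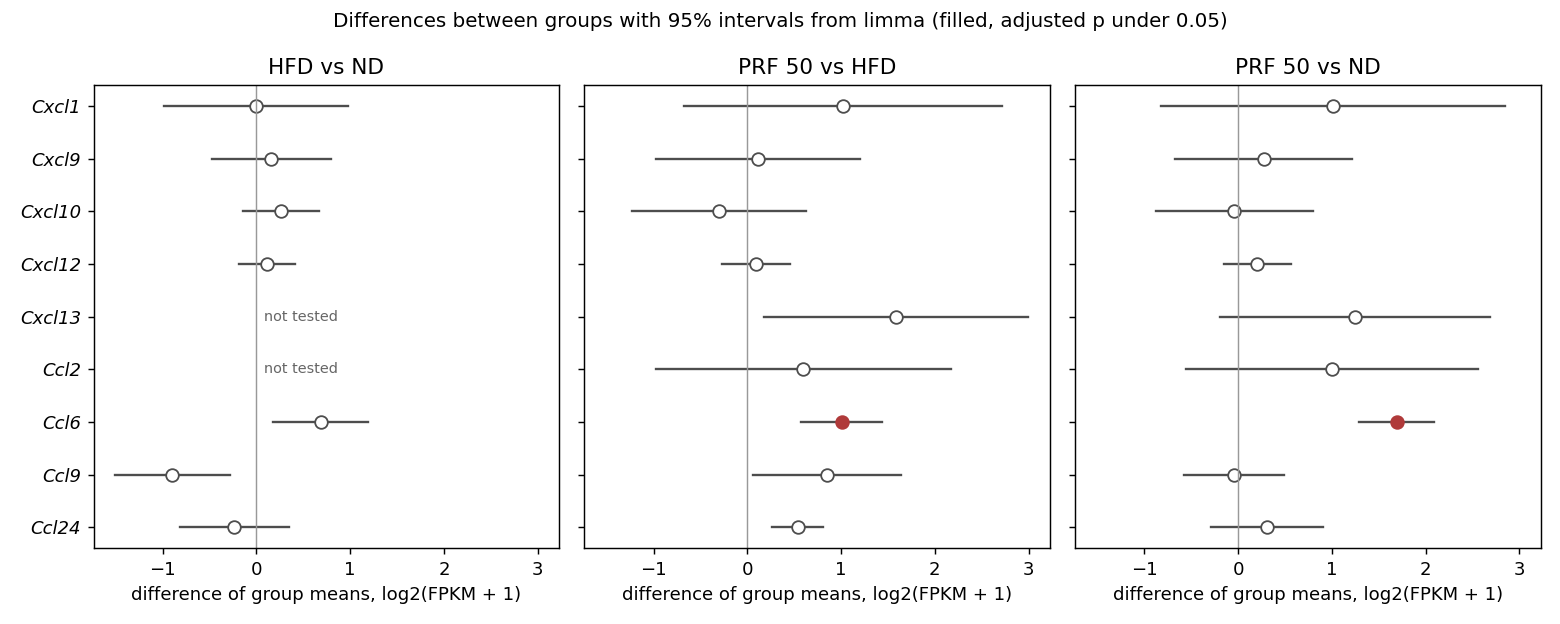
Difference between group means of log2(FPKM + 1) for the tested chemokines (points) with 95% intervals from limma (lines), in each of the 3 comparisons. Filled points mark an adjusted p under 0.05 and are found for Ccl6 alone, at 1.01 against HFD and 1.69 against ND.

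Ccl6 and Ccl9 are CC chemokines of rodents that act on the receptor Ccr1 and are made by macrophages and other myeloid cells. They are neighbours on chromosome 11 of GRCm38, with Ccl9 at 83572919 to 83578636 and Ccl6 at 83587882 to 83593087, both on the minus strand and 9245 bases apart. Ccl6 was at 2.15, 2.87, and 3.94 FPKM in ND mice 6, 7, and 9. It was at 3.70, 6.16, and 6.43 FPKM in HFD mice 1, 2, and 3, and at 13.2, 11.4, and 10.5 FPKM in PRF 50 mice 3, 9, and 10. All 3 PRF 50 livers were above all other livers, whereas HFD mouse 1 lay below ND mouse 9. Group means were 2.99 ± 0.90 (SD, n = 3) for ND, 5.43 ± 1.504 for HFD, and 11.7 ± 1.36 for PRF 50.

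Ccl6 rose in the PRF 50 group by 1.01 on the log2 scale against HFD (95% interval 0.57 to 1.44, adjusted p = 0.0359) and by 1.69 against ND (1.29 to 2.09, adjusted p = 0.0128). In FPKM, the PRF 50 mean was 2.16-fold the HFD mean and 3.92-fold the ND mean. Between HFD and ND the log2 difference was 0.68 (0.18 to 1.19) and did not pass the adjustment (adjusted p = 0.211), so ND and HFD, the lower groups in the order, were not separated by the test. The call against HFD was near its threshold. Of the 6 fits that left out 1 mouse, it held only without HFD mouse 1 (adjusted p = 0.0311), at a log2 difference of 0.79. The adjusted p was 0.0876 without HFD mouse 2, 0.0768 without HFD mouse 3, 0.102 without PRF 50 mouse 3, 0.0748 without PRF 50 mouse 9, and 0.0638 without PRF 50 mouse 10, at log2 differences of 0.92 to 1.13. The call against ND ended without ND mouse 7 (adjusted p = 0.0747) and without PRF 50 mouse 3 (0.0618), at log2 differences of 1.68 and 1.61, within a range of 0.0080 to 0.0747 over the 6 fits. With no minimum level both calls ended (adjusted p = 0.0765 against HFD and 0.0575 against ND). In whole tissue, more cells of a type and more RNA per cell cannot be told apart.

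Ccl9 was the next most abundant of the 10 genes after Cxcl12, with a mean of 15.2 FPKM over the 9 livers. Its values were 20.4, 16.5, and 16.8 FPKM in ND mice 6, 7, and 9, 15.3, 6.73, and 7.21 FPKM in HFD mice 1, 2, and 3, and 25.8, 13.1, and 15.2 FPKM in PRF 50 mice 3, 9, and 10. All HFD livers were below all ND livers, and HFD mice 2 and 3 were also below every PRF 50 liver. The log2 difference was -0.89 for HFD vs. ND (95% interval -1.51 to -0.28, adjusted p = 0.183) and 0.85 for PRF 50 vs. HFD (0.06 to 1.64, adjusted p = 0.212). The ND and PRF 50 means, 17.9 ± 2.16 and 18.0 ± 6.81 FPKM (SD, n = 3), differed by -0.04 on the log2 scale (-0.58 to 0.49). The HFD vs. ND call depended on HFD mouse 1. Without it, Ccl9 was lower in HFD than in ND by a log2 difference of -1.24 with an adjusted p of 0.00958, whereas the other fits with 1 mouse left out gave adjusted p up to 0.491.

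Ccl24, also called eotaxin-2, attracts eosinophils through Ccr3 and is made by macrophages. It was at 0.576, 0.932, and 2.28 FPKM in ND mice 6, 7, and 9, at 0.765, 0.917, and 0.812 FPKM in HFD mice, and at 1.93, 1.41, and 1.67 FPKM in PRF 50 mice 3, 9, and 10. The 3 PRF 50 livers were above the 3 HFD livers, and ND mouse 9 was above all of them. The log2 difference for PRF 50 vs. HFD was 0.54 (95% interval 0.27 to 0.81), and its adjusted p of 0.0545 was above the threshold, and with a mouse left out it was 0.0702 to 0.161. Without the trend in the variance model the adjusted p was 0.0409, within a range of 0.0409 to 0.251 over the 6 settings other than leaving out mice. Against ND the log2 difference was 0.31 (-0.29 to 0.90). Of the 4 eosinophil markers examined, Epx was listed at 0 in all livers, Siglecf was above 0 in 1 liver, and the 4 together summed to at most 0.138 FPKM in any liver.

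Cxcl13 attracts B cells through Cxcr5 and is made by macrophages and by stromal cells of lymphoid follicles. In ND mice 6, 7, and 9 it was at 0.163, 0.605, and 1.33 FPKM, and in HFD mice 1, 2, and 3 at 0.261, 0.223, and 0.379 FPKM, or about 3 to 7 fragments per HFD liver. PRF 50 mice 3, 9, and 10 had 10.5, 0.855, and 1.71 FPKM. Every PRF 50 liver was above every HFD liver, but ND mouse 9 lay between PRF 50 mice 9 and 10. The log2 difference for PRF 50 vs. HFD was 1.59 (95% interval 0.18 to 2.999, adjusted p = 0.198). PRF 50 mouse 3 was 6.14-fold above the next liver, and without it Cxcl13 fell below the minimum of 1 FPKM and was not tested. B cell markers did not follow the same order, since the 5 genes summed to 2.32 to 3.25 FPKM in ND, 0.856 to 1.60 FPKM in HFD, and 1.48 to 2.06 FPKM in PRF 50 livers.

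Cxcl1 and Ccl2 are inflammatory chemokines, induced by bacterial products, tumor necrosis factor, and interleukin 1. Cxcl1 acts on Cxcr2 and attracts neutrophils, and Ccl2 acts on Ccr2 and attracts monocytes. Cxcl1 was at 10.3, 13.2, and 3.15 FPKM in ND mice 6, 7, and 9, at 10.02, 8.09, and 5.60 FPKM in HFD mice 1, 2, and 3, and at 58.1, 14.2, and 5.13 FPKM in PRF 50 mice 3, 9, and 10. PRF 50 mouse 3 was 4.10-fold above the next liver, and PRF 50 mouse 10 was below every HFD liver. The log2 difference for PRF 50 vs. HFD was 1.02 (95% interval -0.68 to 2.71, adjusted p = 0.487) and shrank to 0.15 without PRF 50 mouse 3 (adjusted p = 0.887). For HFD vs. ND it was -0.00 (-0.99 to 0.98). Cxcl1 is the single member of the 10 that stands in the study's list of changed genes for HFD and PRF 50, a list drawn from these same livers.

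Ccl2 was lower than Cxcl1 in every liver. It was at 0.524 and 0.852 FPKM in ND mice 6 and 7 and was listed at 0 in ND mouse 9. HFD mice 1, 2, and 3 had 0.982, 0.480, and 1.22 FPKM, and PRF 50 mice 3, 9, and 10 had 8.54, 0.365, and 0.726 FPKM. PRF 50 mouse 3, with about 61 fragments, was 7.01-fold above the next liver, and the remaining PRF 50 livers lay within the range of the HFD and ND livers except that PRF 50 mouse 9 was below all HFD livers. The log2 difference for PRF 50 vs. HFD was 0.60 (95% interval -0.98 to 2.17), and without PRF 50 mouse 3 the gene was below the minimum and was not tested. A listed 0 does not show absence, because ND mice 6 and 7 held only about 4 and 7 fragments of Ccl2. Albumin (Alb) was also listed at 0 in all livers.

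Cxcl9 and Cxcl10 are induced by interferons and attract activated T cells and natural killer cells through Cxcr3. They lie on chromosome 5 with 18558 bases between them. Cxcl9 was at 3.45, 4.98, and 5.55 FPKM in ND mice 6, 7, and 9, at 7.99, 3.12, and 5.52 FPKM in HFD mice 1, 2, and 3, and at 12.3, 2.79, and 5.11 FPKM in PRF 50 mice 3, 9, and 10. The PRF 50 group held both the highest and the lowest liver, and the log2 difference against HFD was 0.12 (95% interval -0.97 to 1.204), or -0.37 without PRF 50 mouse 3. Cxcl10 was at 3.44 to 3.93 FPKM in ND livers. It was at 3.91, 3.67, and 6.32 FPKM in HFD mice 1, 2, and 3, and at 6.56, 1.40, and 3.96 FPKM in PRF 50 mice 3, 9, and 10. Again the extremes were PRF 50 mice 3 and 9, and the log2 difference against HFD was -0.30 (-1.23 to 0.63), or -0.68 without PRF 50 mouse 3 and 0.15 without PRF 50 mouse 9. Between HFD and ND the log2 differences were 0.16 (-0.48 to 0.79) for Cxcl9 and 0.26 (-0.15 to 0.66) for Cxcl10. An adjusted p above the threshold does not show that the groups were equal.

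The promoters of Cxcl1, Cxcl9, and Cxcl10 are shown with those of Ccl6, the chemokine that passed the test, and its neighbour Ccl9. RefSeq windows (GRCm38.p6) were found for 8 of the 10 genes, without Ccl2 and Ccl24. Each sequence below gives the 250 bases before the annotated start, 5′ to 3′ on the strand of the gene, in lower case, and capitals mark matches to the NF-kappaB motif or to the interferon-stimulated response element GAAANNGAA, both searched on either strand. The windows are chr5:90890995-90891244 on the plus strand, chr5:92328080-92328329 on the minus strand, chr5:92348890-92349139 on the minus strand, chr11:83593088-83593337 on the minus strand, and chr11:83578637-83578886 on the minus strand.
Cxcl1: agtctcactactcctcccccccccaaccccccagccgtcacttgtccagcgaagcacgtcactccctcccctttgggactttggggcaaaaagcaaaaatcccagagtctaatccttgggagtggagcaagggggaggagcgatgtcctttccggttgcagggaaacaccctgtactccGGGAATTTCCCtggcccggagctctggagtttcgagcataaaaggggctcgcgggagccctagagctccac
Cxcl9: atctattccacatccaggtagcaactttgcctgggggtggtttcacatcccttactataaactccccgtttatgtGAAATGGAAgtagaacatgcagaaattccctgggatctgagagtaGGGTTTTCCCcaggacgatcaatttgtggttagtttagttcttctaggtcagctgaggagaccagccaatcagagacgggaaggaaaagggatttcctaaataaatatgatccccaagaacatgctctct
Cxcl10: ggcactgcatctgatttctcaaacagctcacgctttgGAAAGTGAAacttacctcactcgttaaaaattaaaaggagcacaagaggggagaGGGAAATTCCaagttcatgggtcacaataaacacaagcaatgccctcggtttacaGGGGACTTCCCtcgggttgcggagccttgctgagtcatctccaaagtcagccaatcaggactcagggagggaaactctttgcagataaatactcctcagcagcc
Ccl6: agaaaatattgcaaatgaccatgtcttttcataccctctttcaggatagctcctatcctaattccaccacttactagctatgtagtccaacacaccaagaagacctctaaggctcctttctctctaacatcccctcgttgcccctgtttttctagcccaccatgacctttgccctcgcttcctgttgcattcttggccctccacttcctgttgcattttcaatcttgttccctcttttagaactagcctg
Ccl9: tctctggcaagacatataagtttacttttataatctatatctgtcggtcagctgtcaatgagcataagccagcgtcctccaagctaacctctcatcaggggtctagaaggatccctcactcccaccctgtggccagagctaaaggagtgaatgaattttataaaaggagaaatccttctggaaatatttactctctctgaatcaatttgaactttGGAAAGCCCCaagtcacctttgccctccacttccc

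The NF-kappaB motif was found in 5 of the 8 windows (Cxcl1, Cxcl9, Cxcl10, Cxcl13, and Ccl9) and in 13.8% of all 32851 promoter windows of the same length. In Cxcl1 it began 71 bases before the start, as GGGAATTTCC with a further match shifted by 1 base. In Cxcl10 it began 159 and 104 bases before the start, again with a shifted match at the nearer place, in Cxcl9 130 bases before the start as GGGTTTTCCC, in Cxcl13 63 bases before the start, and in Ccl9 35 bases before the start as GGAAAGCCCC. The interferon-stimulated response element was found in Cxcl10 (GAAAGTGAA, 213 bases before the start) and Cxcl9 (GAAATGGAA, 175 bases before the start), and in 7.13% of all windows. The STAT motif TTCNNNGAA was in 0 of the 8 windows and in 7.02% of all windows. Matches to different motifs did not overlap in these windows. The Ccl6 window held none of these letters, as did those of Cxcl12 and Cx3cl1. Binding was not measured, and a match describes the sequence only.

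Cxcl12 keeps leukocytes and progenitor cells in place through Cxcr4 and also binds the scavenging receptor Ackr3. It was by far the most abundant of the 41 chemokine ligand genes examined, with 98.9, 117, and 107 FPKM in ND mice 6, 7, and 9, 127, 122, and 101 FPKM in HFD mice 1, 2, and 3, and 104, 150.1, and 121 FPKM in PRF 50 mice 3, 9, and 10. The highest liver was 1.52-fold above the lowest, the narrowest spread among the 10 genes. Group means of 108 ± 9.20, 117 ± 13.8, and 125 ± 23.2 FPKM (SD, n = 3) for ND, HFD, and PRF 50 overlapped in their spread, and the log2 differences were 0.11 for HFD vs. ND (95% interval -0.19 to 0.41) and 0.09 for PRF 50 vs. HFD (-0.27 to 0.46). It made up 58.7% to 71.5% of the summed FPKM of all ligand genes in 8 livers and 36.4% in PRF 50 mouse 3, in which the sum of the other ligands was larger.

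Cx3cl1, a chemokine anchored in the cell membrane that binds Cx3cr1, was the lowest of the 10. It was at 0.0264, 0.146, and 0.1004 FPKM in ND mice 6, 7, and 9, at 0.195, 0.215, and 0.192 FPKM in HFD mice 1, 2, and 3, and at 0.171, 0.129, and 0.145 FPKM in PRF 50 mice 3, 9, and 10. All HFD livers were above all others, but these values stand for about 1 to 12 fragments each. With no minimum level the log2 difference for HFD vs. ND was 0.14 (95% interval 0.03 to 0.25, adjusted p = 0.3195), which did not pass the adjustment, and for PRF 50 vs. HFD it was -0.06 (adjusted p = 0.391).

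**Figure D3:**
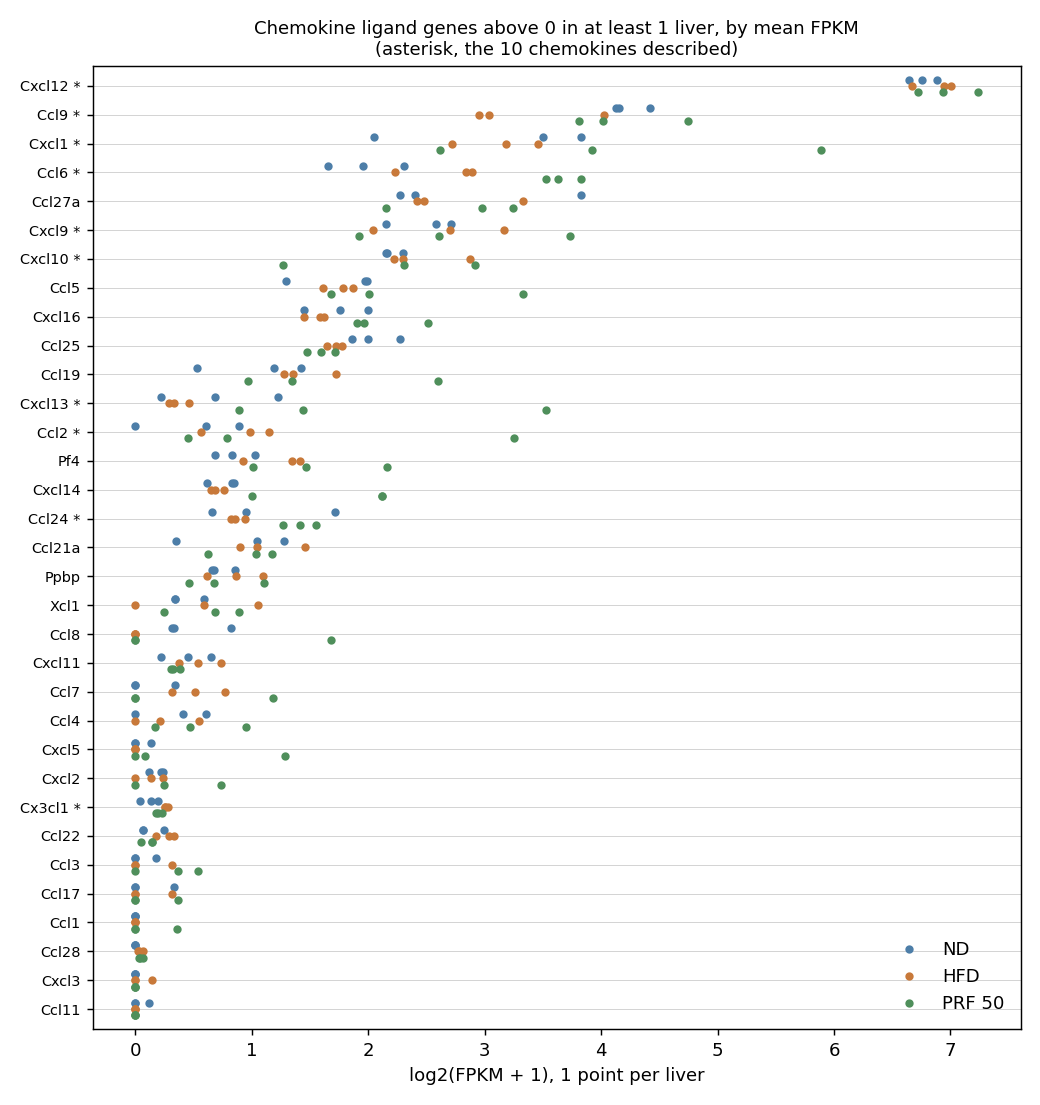
log2(FPKM + 1) of the 33 chemokine ligand genes above 0 in at least 1 liver, ordered by mean FPKM, with 1 point per liver coloured by group and an asterisk at the 10 genes described. Cxcl12 lies far to the right in all livers, and the PRF 50 point set apart to the right for Cxcl1, Ccl5, Cxcl13, and Ccl2 is mouse 3.

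Among the other 31 chemokine ligand genes, 23 were above 0 in at least 1 liver, and their most abundant gene was Ccl27a with 3.44 to 13.2 FPKM. Limma called 0 of the 8 tested for PRF 50 vs. HFD, where 2 had an unadjusted p under 0.05. These were Cxcl14 and Cxcl16, a membrane-bound ligand of Cxcr6 that is named after its values were seen, and both were higher in every PRF 50 liver than in every HFD liver. No overlap, in either direction, held for 26.2% of all tested genes in that comparison. Cxcl14 was at 0.527 to 0.797 FPKM in ND, 0.572 to 0.696 FPKM in HFD, and 3.35, 3.35, and 1.002 FPKM in PRF 50 mice 3, 9, and 10, a log2 difference of 1.05 against HFD (adjusted p = 0.103), and it reached the minimum only through its PRF 50 values. The median log2 difference over all 23 ligands above 0 was 0.089 for PRF 50 vs. HFD. Against ND, limma called 0 of 7 tested in the HFD and in the PRF 50 comparison, with 1 and 3 genes at an unadjusted p under 0.05. The 2 that were higher in PRF 50, Cxcl14 and Pf4 (named after its values were seen), had ND means under 1 FPKM and were tested through their PRF 50 values. Ccl25, named after its values were seen, was among the genes at an unadjusted p under 0.05 in both, lower in each HFD and PRF 50 liver than in each ND liver. No overlap, in either direction, held for 20.7% and 19.9% of all tested genes in the HFD and PRF 50 comparisons with ND.

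The receptors of the 10 chemokines were low in whole liver, and none of them reached the minimum level for testing. Of these, Ccr2 had the highest group means, 0.417 FPKM in ND, 0.736 FPKM in HFD, and 0.864 FPKM in PRF 50. Cxcr4 was at 0.0675 to 0.728 FPKM, Ackr3 at 0.121 to 0.478 FPKM, Cx3cr1 at 0.101 to 0.407 FPKM, and Cxcr2 at 0.0742 to 0.324 FPKM over the 9 livers. Cxcr3 was listed at 0 in HFD mice 1 and 2 and was at 0.0368 FPKM in HFD mouse 3, against 0.111 to 0.212 FPKM in ND and 0.194 to 0.537 FPKM in PRF 50 livers. With no minimum level, its log2 difference for PRF 50 vs. HFD was 0.40 with an adjusted p of 0.103. Ccr1, Ccr3, and Cxcr5 were at most at 0.288 FPKM, in ND mouse 9 for Ccr3.

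None of the 5 genes listed as atypical chemokine receptors was tested, and their most abundant gene, Ccrl2, was at 0.410 to 1.22 FPKM. Of the proteases that cut chemokines, Dpp4, the most abundant, was at 24.8 to 34.8 FPKM. Limma called 0 of the 3 protease genes in any comparison, with 1, Adam17 (named after its values were seen), at an unadjusted p under 0.05 for PRF 50 vs. HFD and 0 in the others.

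Markers of Kupffer cells moved with the PRF 50 group. Of the 12 genes, limma called 10 higher and 0 lower for PRF 50 vs. HFD, beside 3.59% of all tested genes called, and all 12 were without overlap, beside 26.2% of all tested genes. Their median log2 difference was 1.43, beside -0.02 over all tested genes. Their summed level was 96.6, 181, and 229 FPKM in ND mice 6, 7, and 9, 113, 184, and 184 FPKM in HFD mice 1, 2, and 3, and 622, 389.8, and 409 FPKM in PRF 50 mice 3, 9, and 10. The most abundant gene, Cd5l, had a mean of 32.5 FPKM in HFD and 98.5 FPKM in PRF 50, and the defining gene Clec4f rose by 1.38 on the log2 scale (adjusted p = 0.0336). Timd4, a marker of long-resident Kupffer cells, rose by 1.49 (adjusted p = 0.0150). None of the 12 markers was at 0. Without PRF 50 mouse 3, C1qb alone was called (log2 difference 1.21, adjusted p = 0.0367), and without HFD mouse 3 limma called 0 of the 10. With any 1 mouse left out, the 10 genes had log2 differences of 1.08 to 1.79 and adjusted p of 0.0124 to 0.103, and none was called in all 6 fits. With no minimum level, Timd4, Cd163, and Vsig4 were called (adjusted p = 0.0436, 0.0432, and 0.0441) and the other 7 were not. C1qa, C1qb, C1qc, Cd5l, Clec4f, Csf1r, Marco, and Vsig4 also stand in the study's list drawn from these livers, so that their direction is not independent evidence. The median for HFD vs. ND was -0.04 and limma called 0 of 12, with 0 at an unadjusted p under 0.05. In that comparison the log2 difference of Ccl6 was 0.68 and did not pass the adjustment (limma, adjusted p = 0.211). The median for PRF 50 vs. ND was 1.34, limma called 0 of 12, and 11 had an unadjusted p under 0.05. The part of the Kupffer cell signal in the Ccl6 result was not tested.

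The summed levels of neutrophil markers and of acute phase genes were highest in PRF 50 mouse 3 and next in PRF 50 mouse 9, an order that several single acute phase genes did not follow. The 9 neutrophil markers in the tables summed to 58.0, 19.9, and 3.73 FPKM in PRF 50 mice 3, 9, and 10, to 4.51, 4.39, and 5.12 FPKM in HFD mice 1, 2, and 3, and to 3.17, 9.36, and 6.52 FPKM in ND mice 6, 7, and 9. Their most abundant gene, S100a8, was at 30.5, 9.39, and 1.46 FPKM in PRF 50 mice 3, 9, and 10 and at 1.62 to 3.14 FPKM in HFD livers. None of these markers was at 0 in all livers, and limma called 0 of the 2 tested for PRF 50 vs. HFD, with 1, S100a9, at an unadjusted p under 0.05, and 0 of 2 in the other comparisons, with 0 at that level. The 20 acute phase genes, most of which encode proteins that hepatocytes secrete in inflammation, summed to 47976, 30973, and 16024 FPKM in PRF 50 mice 3, 9, and 10, to 17298, 13983, and 12412 FPKM in HFD mice 1, 2, and 3, and to 20873, 18674, and 16805 FPKM in ND mice 6, 7, and 9. Hemopexin (Hpx), their most abundant gene, was at 11039 FPKM in PRF 50 mouse 3 and at 2294 to 5004 FPKM in the other livers. Cxcl1 had the same order of PRF 50 mice (58.1, 14.2, and 5.13 FPKM), and the part of these signals in the Cxcl1 values was not tested. Limma called 0 of the 20 acute phase genes for PRF 50 vs. HFD, with 6 at an unadjusted p under 0.05, and called Lcn2 and Steap4 higher for HFD vs. ND, by 2.29 and 0.57 on the log2 scale (adjusted p = 0.0309 and 0.0330), beside 1.33% of all tested genes called. In that comparison 6 were higher and 2 lower at an unadjusted p under 0.05, and the 2 were Hamp, at a log2 difference of -2.31 (adjusted p = 0.0940), and Orm1 (named after its values were seen), at -0.82 (adjusted p = 0.0914), each lower in every HFD liver than in every ND liver. No overlap, in either direction, held for 20.7% of all tested genes for HFD vs. ND. The Lcn2 call held only without ND mouse 7 or HFD mouse 2, and the Steap4 call ended in all 6 fits with a mouse left out. Limma called 0 of 20 for PRF 50 vs. ND, with 6 higher and 1 lower at an unadjusted p under 0.05. Saa1, Saa2, Lcn2, Orm2, Hp, Hpx, Lbp, Steap4, and Lrg1 also stand in the study's list from these livers and are not independent evidence.

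**Figure D4:**
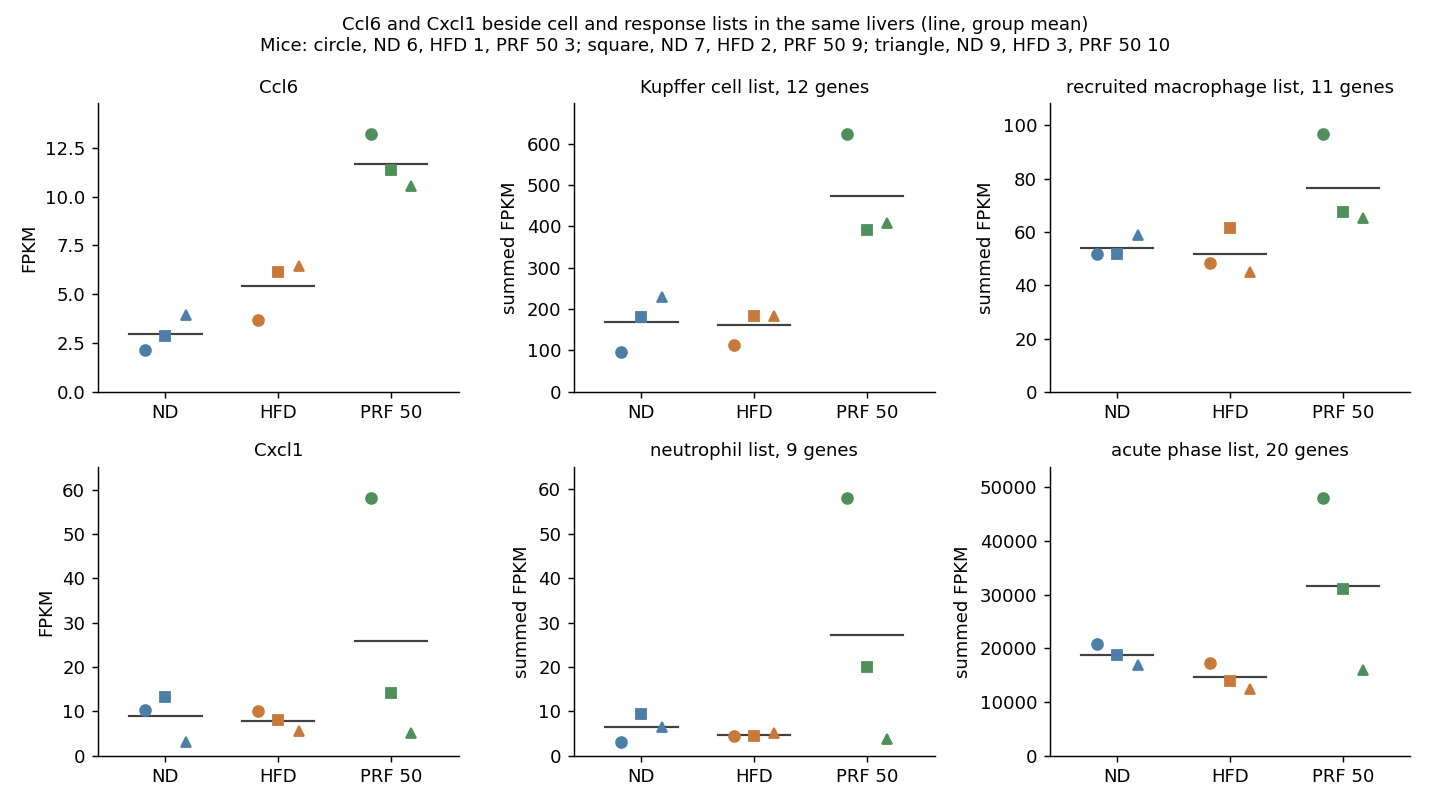
FPKM of Ccl6 and Cxcl1 and the summed FPKM of the Kupffer cell, recruited macrophage and monocyte, neutrophil, and acute phase lists (vertical axes, from 0) in the 3 livers of each group, with 1 symbol per mouse and a line at the group mean. The upper panels have all PRF 50 livers above the others, and the lower panels have PRF 50 mice 3 and 9 above and PRF 50 mouse 10 within the range of the other groups.

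Markers of recruited macrophages and monocytes were mostly low. Of 11 genes, 5 were tested for PRF 50 vs. HFD and limma called 0, with 2, Plac8 and Ly6c2, at an unadjusted p under 0.05. Ly6c2 (named after its values were seen) reached the minimum only through PRF 50, with means of 0.791 FPKM in HFD and 2.22 FPKM in PRF 50. The median over all 11 was 0.29, with summed levels of 96.7, 67.7, and 65.3 FPKM in PRF 50 mice 3, 9, and 10 and 44.9 to 61.6 FPKM in HFD livers. Their most abundant gene was Spp1, at 22.6 to 38.0 FPKM over the 9 livers. Cd9 was lower in HFD than in ND by a log2 difference of -0.99 (adjusted p = 0.0309), the 1 gene called among 4 tested, beside 1.33% of all tested genes, and with a mouse left out the call held only without HFD mouse 2. The list as a whole did not go with Cd9, since the median log2 difference over all 11 genes for HFD vs. ND was 0.16. In PRF 50 vs. ND limma called 0 of 5, with 3 higher, among them Ly6c2, and 1 lower at an unadjusted p under 0.05. Markers of T and natural killer cells, the cells that carry Cxcr3, summed to 2.15 to 4.68 FPKM in ND, 1.34 to 1.94 FPKM in HFD, and 3.06 to 6.75 FPKM in PRF 50 livers, and none of the 10 reached the minimum level. With no minimum level limma called 1 of them, Gzmb (named after its values were seen), higher for PRF 50 vs. HFD, at a log2 difference of 0.42 (adjusted p = 0.0450), a fit in which 126 of all 16525 genes were called. Its level was low in all livers, with 0 to 0.416 FPKM in ND, 0 to 0.117 FPKM in HFD, and 0.355 to 0.484 FPKM in PRF 50, so that ND and PRF 50 livers overlapped. Sinusoidal endothelial markers were lowest in HFD mouse 1, at 29.0 FPKM in sum against 63.8 to 121 FPKM in the other livers, with Clec4g as their most abundant gene. Limma called 0 of these 10 in each comparison, with 1 at an unadjusted p under 0.05 for PRF 50 vs. HFD, 3 for HFD vs. ND, and 0 for PRF 50 vs. ND. HFD mouse 1 was also the lowest HFD liver for Ccl6, Ccl24, and the summed Kupffer cell markers and the highest HFD liver for Ccl9, Cxcl1, Cxcl9, and Cxcl12.

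Genes of the interferon response and of NF-kappaB signalling were listed because these signals induce several of the 10 chemokines. Limma called 1 of 15 tested interferon genes for PRF 50 vs. HFD, beside 3.59% of all tested genes. This was Irf7, which rose by 0.79 on the log2 scale (adjusted p = 0.0150, and 0.0396 with no minimum level), and 0 were called lower, with 3 higher and 2 lower at an unadjusted p under 0.05. The Irf7 call ended without HFD mouse 3 (adjusted p = 0.0654) and without PRF 50 mouse 3 (0.0538). The median log2 difference over all 16 genes was 0.12. Oasl2 and Gbp3 were called higher for PRF 50 vs. ND, by 0.71 and 0.64 (adjusted p = 0.0447 for both), a comparison in which 0.458% of all tested genes were called, and with any 1 mouse left out neither was called. Oasl2, with an ND mean of 0.919 FPKM, reached the minimum through its PRF 50 mean of 2.14 FPKM. In HFD vs. ND it called 0 of 15, with 3 higher and 1 lower at an unadjusted p under 0.05. The list's most abundant gene, Iigp1, was at 148 to 230.2 FPKM. Of 10 tested genes of NF-kappaB signalling and cytokines, limma called Vcam1, an adhesion molecule for leukocytes, higher for PRF 50 vs. HFD by 0.64 (adjusted p = 0.0403), again beside 3.59% of all tested genes, and the most abundant gene was Zfp36 at 22.3 to 65.9 FPKM. With a mouse left out, Vcam1 was called only without PRF 50 mouse 9 (adjusted p = 0.0298). The median over all 14 genes of this list was 0.36. With no minimum level Vcam1, Oasl2, and Gbp3 were not called, nor were Lcn2, Steap4, and Cd9 for HFD vs. ND. Limma called 0 of 9 for HFD vs. ND and 0 of 10 for PRF 50 vs. ND, with 1 and 3 at an unadjusted p under 0.05.

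Genes whose log2 values followed a chemokine most closely over the 9 livers were sought among the 10048 genes described above, for all members except Cx3cl1. For Ccl6 these were Fto, Galnt10, and Cd86 (Pearson's r = 0.964, 0.959, and 0.959), and without PRF 50 mouse 3 r was 0.951, 0.945, and 0.966 over 8 livers. For Ccl24 they were the macrophage scavenger receptor gene Cd163 (0.952), Wwc2 (0.929), and Pmp22 (0.922), with 0.917 to 0.960 over 8 livers. Cxcl13 was followed by Spic, a transcription factor gene of iron-recycling macrophages (0.975), and by the leukocyte genes Cd52 (0.974) and Coro1a (0.974). Over 8 livers Spic kept r = 0.956, and Cd52 and Coro1a had 0.854 and 0.848. Cxcl13 and Ccl2 averaged 1.78 and 1.52 FPKM over the 9 livers. They entered this search only through PRF 50 mouse 3 (10.5 and 8.54 FPKM).

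For Cxcl1, Ccl2, Cxcl9, and Cxcl10, as for Cxcl13, all 3 closest genes had a lower r without PRF 50 mouse 3. The closest genes were chosen by r over all 9 livers, so a lower r with a liver left out is partly set by that choice. Cxcl1 was followed by the complement gene Cfb (0.966, and 0.888 over 8 livers), Tmem176a (0.959 and 0.861), and the transferrin gene Trf (0.957 and 0.854). Ccl2 was followed by Ccl5 (0.962 and 0.746), Gm4841 (0.948 and 0.815), and Lsp1 (0.923 and 0.744). For Cxcl9 the closest genes were Pet100 (0.888 and 0.791), H2-Eb1 (0.886 and 0.735), and Gla (0.874 and 0.703), and for Cxcl10 Polr3k (0.915 and 0.887), Zfp512 (0.911 and 0.892), and Sep15 (0.897 and 0.862). Ccl9 was followed by C1ra (0.941), Pla1a (0.939), and H2-Q9 (0.935), with 0.918 to 0.982 over 8 livers, and Cxcl12 by Bmp1 (0.950), Mkrn1 (0.920), and Mef2d (0.897), with 0.894 to 0.962. These are the highest of many correlations over few livers in 3 groups, and they describe the shape of the values only.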

How the data were processed

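Whole-liver RNA of 9 mice was measured, 3 per group, with 1 library per mouse and groups taken from the sample labels. The authors removed adapters with FASTX_Trimmer and BBMap, used TopHat to map paired-end reads to mm10, took FPKM from Cufflinks, and applied a geometric normalization for which the authors name EdgeR. Deposited was 1 log2 value per gene symbol, read as log2(FPKM + 1) because the lowest value is 0 and low values then form whole steps.

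Differences were tested with limma (version 3.58.1, R version 4.3.3; lmFit and eBayes with trend) for the 6 mice compared, over genes averaging 1 FPKM or more, with Benjamini-Hochberg adjustment over all of these genes. The steps were tested on simulated data. Named genes were all 10 chemokines, the receptors of these, list genes that were called or passed p and fold without overlap (at most 6 per list and comparison), the most abundant gene of each list, and the 3 genes closest in pattern to each chemokine other than Cx3cl1. Genes named outside this rule are identified as such or listed by count. The chemokines and lists were chosen with earlier results of these data known. Fragments were estimated from FPKM and RefSeq transcript length less 220 bases (GENCODE M21 positions, GRCm38), with the step taken from 2246 genes with a single transcript longer than 1500 bases, and they hold only as far as that step does. Alternatives were quantile normalization, scaling by median of ratios, a pseudocount of 0.1, eBayes without a trend, no minimum, a minimum of 10 FPKM, all 9 mice in 1 fit, and each mouse left out. The neutrophil marker Ly6g and the hepatocyte marker Tf were not found among the symbols. Transferrin stands in the data under the symbol Trf, which was not part of the hepatocyte list. The result for 1 gene of the receptor list is not reported.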

Additional observations from a re-analysis of the deposited data

How the results depend on the processing

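Of 303 log2 differences of single chemokines recomputed under the alternatives, 273 kept their direction and their side of the threshold. Leaving out a mouse lowers the number of samples in a fit, and a higher minimum removes genes from it. The chemokines called for PRF 50 vs. HFD numbered 0 with no minimum and with a minimum of 10 FPKM, 2 without a trend, and 0 to 1 with a mouse left out, and the number past p and fold was 0 at 10 FPKM and 0 to 3 with a mouse left out. Those without overlap numbered 0 at 10 FPKM and 2 to 4 with a mouse left out. With fewer livers, groups separate more easily, and the share of all genes without overlap was not computed for the alternatives. Numbers without overlap are therefore not read against the main fit in any comparison. For PRF 50 vs. ND, the called number was 0 with no minimum and at 10 FPKM and 0 to 1 with a mouse left out, and at 10 FPKM the numbers past p and fold and without overlap were 0. Past p and fold there were 2 with all 9 mice in 1 fit and 1 to 2 with a mouse left out, and 1 to 3 were without overlap with a mouse left out. For HFD vs. ND, 2 were without overlap with no minimum, and with a mouse left out 0 to 1 were called, 0 to 1 passed p and fold, and 1 to 3 were without overlap. All genes called with no minimum numbered 126 for PRF 50 vs. HFD, 37 for HFD vs. ND, and 11 for PRF 50 vs. ND. With all 9 mice in 1 fit and the minimum of 1 FPKM, PRF 50 vs. ND had 107, beside 46 with its own 6 mice. With a mouse left out the numbers were 15 to 242, 35 to 140, and 4 to 71. In those fits 168 to 253, 111 to 164, and 131 to 239 of all genes passed p and fold, of 9950 to 10130 tested.

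Small differences changed sign. Cxcl1 for HFD vs. ND was 0.0236 with a pseudocount of 0.1 and 0.00754 with quantile normalization, and Ccl9 for PRF 50 vs. ND was 0.00452 with quantile normalization. With a mouse left out, HFD vs. ND ranged from -0.54 to 0.35 for Cxcl1 and from -0.11 to 0.46 for Cxcl9. PRF 50 vs. HFD ranged from -0.37 to 0.53 for Cxcl9, -0.68 to 0.15 for Cxcl10, and -0.0456 to 0.22 for Cxcl12, and PRF 50 vs. ND from -0.21 to 0.69 for Cxcl9, -0.42 to 0.41 for Cxcl10, and -0.32 to 0.15 for Ccl9. Apart from the number of samples or genes in a fit, the cause was not tested. No paired analysis was possible because the groups share fewer than 2 mouse numbers, and numbers name animals only. Called genes of the marker and response lists were refitted with no minimum level and with each mouse left out, a choice made after the values were seen. The few fragments behind Ccl2, Cxcl13, Ccl24, and Cx3cl1 limit what can be detected for them.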

Other observations

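Beyond the 10 chemokines, PRF 50 mouse 3 was the highest liver for 12 of the other 23 ligand genes above 0. Examples chosen after the values were seen are Ccl5, at 9.08 FPKM in this liver and 1.44 to 3.02 FPKM in the others, Ccl19, at 5.07 FPKM against 0.446 to 2.31 FPKM, and Cxcl5, at 1.44 FPKM against at most 0.0991 FPKM. Ccl8 was at 2.21 FPKM in PRF 50 mouse 3, at 0.245 to 0.772 FPKM in the ND livers, and listed at 0 in all HFD livers and in PRF 50 mice 9 and 10. The cytokine gene Il1b was at 6.05 FPKM in this liver and 0.222 to 1.61 FPKM in the others, and Nfkbiz was at 9.88 FPKM and 0.797 to 2.39 FPKM. Marco, a scavenger receptor of Kupffer cells, was at 58.6, 3.63, and 19.8 FPKM in PRF 50 mice 3, 9, and 10 and at 1.34 to 3.29 FPKM in HFD livers.

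With limma, the remaining marker lists gave 0 calls between HFD and ND and between PRF 50 and HFD. Stellate cell markers, with Dcn as the most abundant gene, summed to 76.9 to 131 FPKM in ND, 109.5 to 140.1 FPKM in HFD, and 99.6 to 172 FPKM in PRF 50 livers, and 2 of 9 tested had an unadjusted p under 0.05 in each of these comparisons. Col1a1 and Col3a1, named after their values were seen, were these genes, higher in each HFD liver than in each ND liver and lower in each PRF 50 liver than in each HFD liver. No overlap, in either direction, held for 20.7% of all tested genes for HFD vs. ND and 26.2% for PRF 50 vs. HFD. Col1a1, with means of 0.571 FPKM in ND, 1.72 FPKM in HFD, and 0.948 FPKM in PRF 50, reached the minimum only through its HFD values in both comparisons. Hepatocyte markers, led by Apoa1, summed to 14520 to 22317 FPKM over the 9 livers. Of 7 tested, 3 had an unadjusted p under 0.05 for HFD vs. ND, all lower in HFD. Among them Ass1 also passed p and fold, at a log2 difference of -1.02 (limma, adjusted p = 0.218), with no overlap between the groups. Of all tested genes, 1.34% passed p and fold and 20.7% had no overlap in that comparison. For PRF 50 vs. HFD, 1 of the 7 hepatocyte markers had an unadjusted p under 0.05 and was lower in PRF 50. Dendritic cell, platelet, and cholangiocyte markers (most abundant Zbtb46, Itga2b, and Sox9) summed to at most 1.96, 0.911, and 3.49 FPKM in any liver and were not tested in these comparisons.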
